A study of Homo sapiens with 6 samples.

Results

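The genes described here are 43 genes of the contractile and adhesive machinery of the cell, taken by symbol from a fixed list of actin-binding, myosin II and focal adhesion genes, out of 62700 genes in the expression tables. All 43 symbols were found, and 41 of them had a mean of at least 1 TPM (a transcript level that takes gene length into account and adds up to the same total in each library) over the 6 libraries and were tested. The libraries were made from SK-Hep1, a human liver tumor cell line that the study calls endothelial-derived. The 3 control libraries are titled as shControl whereas their genotype label is WT, and the 3 other libraries carry shRNA against the long non-coding RNA *RAB30-DT*. The study made 2 such shRNAs, and no label says which of them each knockdown library carries. The shRNA was stably expressed from an integrated lentivirus after puromycin selection, and each library is a bulk culture. Each library was made from poly-A selected RNA, and no label says whether the replicates of a group came from separate cultures, so the p-values measure only the spread between these libraries. The targeted RNA was 18.16, 11.51 and 13.91 TPM in the control libraries and 11.94, 10.85 and 6.50 TPM in the knockdown libraries, with overlap between the groups (log2 fold change −0.55, adjusted p = 0.355 from limma), so this level alone did not separate the libraries as labelled. The study also reports a qPCR check of the *RAB30-DT* knockdown in this cell line. Replicates 1, 2 and 3 are given in this order throughout.

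Actin filaments assemble from monomers and are bundled, capped, cut and pulled on by proteins that bind along them. Non-muscle myosin II pulls filaments against each other to form contractile bundles called stress fibers, tropomyosins, calponins and caldesmon lie along the filament and regulate access to it, and focal adhesions tie the ends of the bundles through talin and vinculin to integrins in the membrane. Many of these genes are targets of serum response factor (SRF), which binds a promoter sequence called the CArG box together with myocardin-related coactivators that sense the pool of actin monomers. In liver tumor cells, as in other cells that attach to a matrix, this machinery sets shape, adhesion and migration.

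The CArG box is shown first, because many of the genes were listed as SRF targets, so that its frequency among them is a description and not a finding. RefSeq promoters of GRCh38.p14, from 250 bases before to 50 bases after each transcript start, were at hand for 41 of the 43 members (93 promoters). A CArG box stood in 12 of these 93 promoters (12.9%), which belong to 10 genes (*ACTN1*, *CNN2*, *FBLIM1*, *FHL1*, *FHL2*, *FILIP1L*, *FLNA*, *SVIL*, *TGFB1I1* and *TPM4*), and in 1.29% of all 35116 promoters. The stretches below are printed 5′ to 3′ on the strand of the gene with the CArG box in capitals. The first 4 belong to members with all knockdown libraries lower than all control libraries, the fifth to a tropomyosin gene in which the groups overlapped, and the last to *FHL2*, a gene with almost equal group means.
*FBLIM1* (chr1:15758679-15758728, plus strand): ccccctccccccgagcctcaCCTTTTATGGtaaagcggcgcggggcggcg
*CNN2* (chr19:1026499-1026548, plus strand): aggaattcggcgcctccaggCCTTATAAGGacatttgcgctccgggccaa
*FLNA* (chrX:154374699-154374748, minus strand): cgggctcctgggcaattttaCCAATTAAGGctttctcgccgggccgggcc
*ACTN1* (chr14:68977708-68977757, minus strand): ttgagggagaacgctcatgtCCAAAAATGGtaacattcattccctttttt
*TPM4* (chr19:16067345-16067394, plus strand): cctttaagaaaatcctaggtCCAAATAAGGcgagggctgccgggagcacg
*FHL2* (chr2:105399081-105399130, minus strand): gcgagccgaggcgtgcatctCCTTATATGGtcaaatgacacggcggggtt

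A motif match describes the letters of a promoter and is not evidence of binding. The motif of the TEAD factors, which carry the YAP coactivator to DNA (GGAATG or CATTCC, so that both strands were read), stood in 16 of the 93 member promoters (17.2%) and in 14.0% of all promoters. The AP-1 motif (TGAGTCA or TGACTCA) stood in 4 member promoters (4.30%) and in 4.95% of all. The motifs were counted separately, and overlaps between them were not removed. The TEAD motif is shown for *MYH9* and *ANKRD1*, the member that passed the test and the member that stood higher in every knockdown library.
*MYH9* (chr22:36388012-36388057, minus strand): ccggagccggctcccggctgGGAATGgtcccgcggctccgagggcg
*ANKRD1* (chr10:90921190-90921235, minus strand): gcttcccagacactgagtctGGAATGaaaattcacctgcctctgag
*ANKRD1* (chr10:90921282-90921327, minus strand): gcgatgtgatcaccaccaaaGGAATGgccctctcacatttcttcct

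Levels of the members were lower on balance in the knockdown libraries. The list was chosen with earlier results of these data known, so shares of members set against all tested genes are descriptions. The summed level of the 43 genes was 11620 ± 562.5 TPM in control and 9321 ± 514.9 TPM in knockdown cells (SD, n = 3 each), which is 1.10%, 1.21% and 1.175% of the total of the control libraries and 0.873%, 0.958% and 0.965% of that of the knockdown libraries. Abundant members weigh most in this sum, above all *PFN1* (2140 TPM in control and 1437 TPM in knockdown cells on average, with overlapping groups). In bulk RNA, fewer cells of a type and less RNA per cell cannot be told apart. Among the 41 tested members, 31 had a negative and 10 a positive log2 fold change (75.6% negative, against 53.7% of all 14020 tested genes), and the median was −0.22 against −0.04 over all tested genes. With quantile normalization the members' median was −0.10. In 11 of the 41 members, all with a log2 fold change of at most 0.198 in size, the sign turned under an alternative processing. Fold changes are differences in log2(TPM + 1) between the knockdown and the control mean.

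The test passed for 1 of the 41 members, *MYH9* (limma, Benjamini–Hochberg adjusted p under 0.05 over all tested genes), and this member was lower. Over all tested genes 146 were called (1.04%), of which 94 were lower (0.67%) and 52 higher. Library scaling shifted that split, to 68 lower and 68 higher with median-of-ratios scaling and to 83 lower and 78 higher with quantile normalization. At an unadjusted p under 0.05, 15 members were lower (36.6%) against 9.7% of all tested genes, and 2 were higher (4.88%) against 7.06%. Every knockdown library lay below every control library in 14 members (34.1%), against 13.4% of all tested genes, and above every control library in 1 member (2.44%), against 9.89%. The members above every control library numbered 3 with median-of-ratios scaling or with the GC trend removed (12.3% and 16.3% of all tested genes) and 4 with quantile normalization (11.8% of all tested genes). In the other 26 tested members the groups overlapped.

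**Figure D1:**
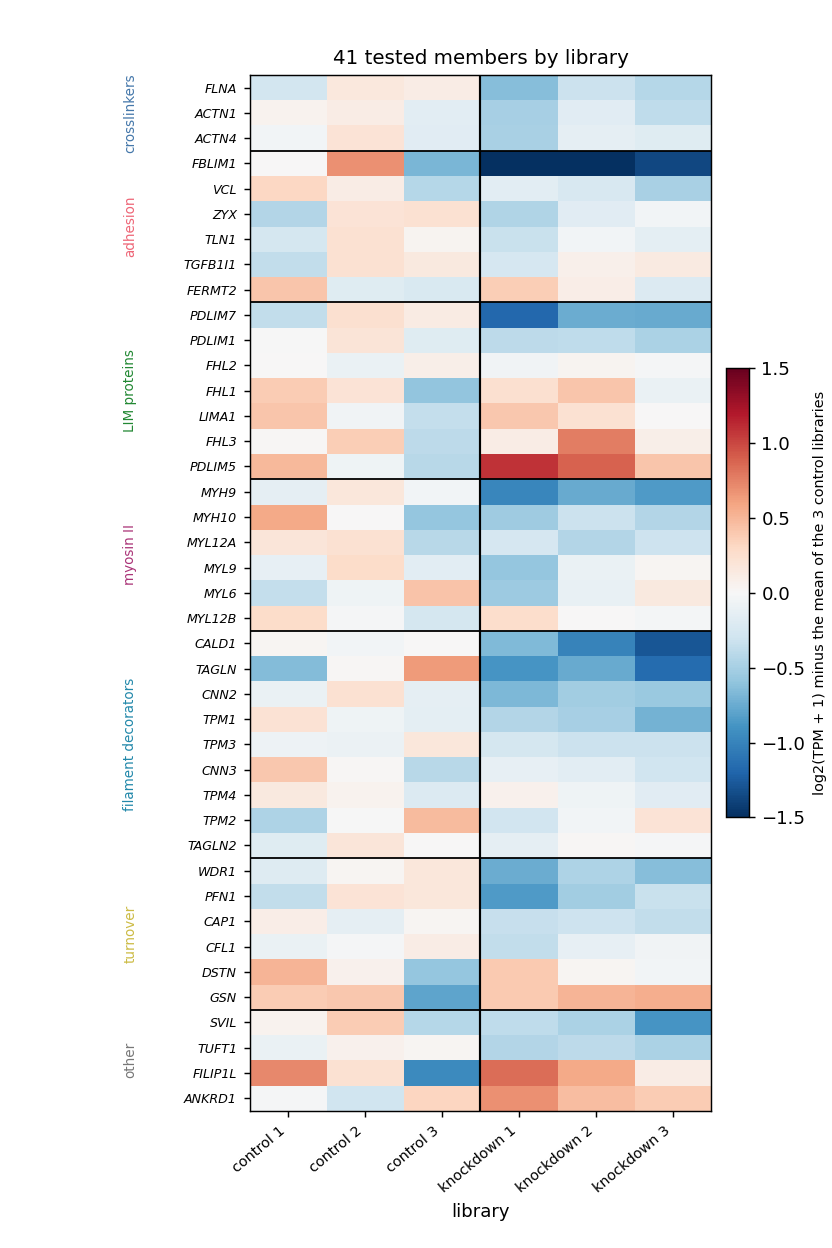
Heatmap of the 41 tested members (rows, ordered by role) in the 6 libraries (columns), coloured by log2(TPM + 1) minus the mean of the 3 control libraries, with colours limited to a difference of 1.5 in either direction. Blue (lower) fills the 3 knockdown columns of *MYH9*, *FBLIM1*, *CALD1*, *TAGLN*, *PDLIM7* and *WDR1*, red (higher) those of *PDLIM5* and *ANKRD1*, and the uneven colours of the 3 control columns show the spread between replicates.

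The libraries also differed in a way that the groups do not explain. Spearman's rank correlation across all tested genes between the level relative to the mean of the libraries and the GC content of the transcript was −0.607, 0.297 and 0.489 for the control libraries, and −0.523, 0.022 and 0.33 for the knockdown libraries. The median GC content of the members was 52.5%, from 40.1% to 64.5%, against 48.7% over all tested genes. When each library's trend with GC content was removed, an alternative chosen with results of these data known, 8 members were called (19.5%), against 8.86% of all tested genes. Of these, 7 were lower (17.1%), against 4.89% of all tested genes: *MYH9*, *FBLIM1*, *CALD1*, *PDLIM7*, *WDR1*, *PFN1* and *TPM1*. The eighth, *PDLIM5*, was higher. Those 8 calls depended on single libraries, because 7, 2 and 16 members were called without control replicates 1, 2 and 3, and 0 without any of the 3 knockdown libraries. Calls over all tested genes moved too, from 686 lower and 556 higher with all libraries. Without control replicates 1, 2 and 3 they were 650, 181 and 924 lower and 454, 147 and 751 higher. Without knockdown replicates 1, 2 and 3 they were 60, 64 and 68 lower and 47, 56 and 50 higher.

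Among the myosin II genes, *MYH9*, the heavy chain of non-muscle myosin IIA and the motor of stress fibers, fell in knockdown cells. The gene (ENSG00000100345.23) occupies bases 36281280 to 36388010 of chromosome 22 (hg38, minus strand). Control libraries held 199.38, 245.93 and 212.66 TPM of it, and knockdown libraries 110.22, 129.29 and 121.08 TPM. The lowest control library was well above the highest knockdown library. The mean was 219 ± 24.0 TPM in control and 120 ± 9.57 TPM in knockdown cells (SD, n = 3 each). On the log2 scale the fold change was −0.86 (standard error 0.15, limma adjusted p = 0.0442), or 0.551 of the control level. The fold change stayed between −0.93 and −0.77 when any library was left out. The call itself was lost with control replicate 2, control replicate 3 or any knockdown library left out (adjusted p from 0.0610 to 0.188), and also with median-of-ratios scaling (adjusted p = 0.0622) and quantile normalization (adjusted p = 0.0763).

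In the other heavy chain gene and the light chain genes the groups overlapped. *MYH10*, the heavy chain of myosin IIB, had 31.76, 21.24 and 13.76 TPM in the control libraries and 14.29, 16.60 and 15.31 TPM in the knockdown libraries (log2 fold change −0.43, standard error 0.29, adjusted p = 0.492 from limma). Its control libraries spread across the knockdown values, and it overlaps *NDEL1*, expressed at 28.4 TPM from the opposite strand, which could add reads if counting was not strand-specific. The *MYH9* to *MYH10* ratio of TPM was 6.278, 11.58 and 15.45 in the control libraries and 7.713, 7.789 and 7.909 in the knockdown libraries, so that it was wide in control and narrow in knockdown cells. The regulatory light chain genes *MYL12A* and *MYL12B* code for near-identical proteins, so reads could be split between them. *MYL12A* had 374.22, 386.54 and 246.10 TPM in control and 275.77, 241.40 and 264.65 TPM in knockdown libraries, and *MYL12B* had 383.70, 311.66 and 263.31 TPM and then 378.98, 316.79 and 310.60 TPM. The groups overlapped in both genes. Levels of *MYL6*, the essential light chain, ran from 595.19 to 1024.73 TPM in control and from 522.12 to 848.93 TPM in knockdown libraries, and those of *MYL9*, the regulatory light chain of smooth muscle, from 36.92 to 50.33 TPM and from 27.24 to 42.25 TPM.

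**Figure D2:**
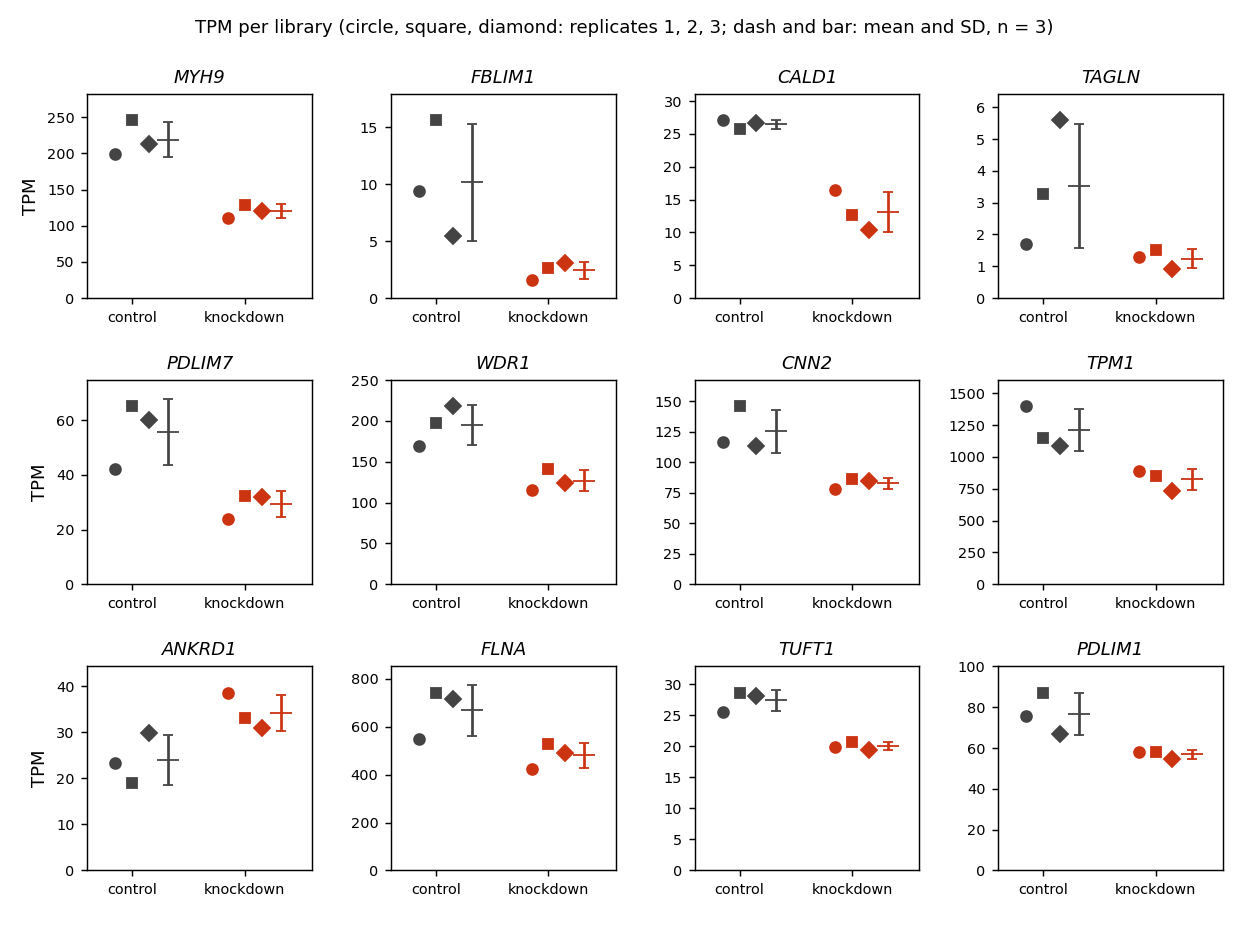
Level of 12 members in TPM (y axis, linear, from 0) in the 3 control and 3 knockdown libraries, with points for libraries and a bar with error for the mean ± SD (n = 3). In 11 panels every knockdown point lies below every control point, and in the panel of *ANKRD1* every knockdown point lies above.

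Among the 10 genes whose proteins decorate filaments, 9 were tested and 5 were below control in every knockdown library, against 13.4% of all tested genes. None was called. The log2 fold changes ran from −0.98 to −0.04 (median −0.30), and the sign of *CNN3*, *TPM2*, *TPM4* and *TAGLN2* turned under an alternative processing. *CALD1* codes for caldesmon, which binds actin and tropomyosin and inhibits the motor activity of myosin. It lies on chromosome 7 from 134744252 to 134970729 and had 27.08, 25.77 and 26.61 TPM in control and 16.43, 12.68 and 10.31 TPM in knockdown libraries. The control values were tight (26.5 ± 0.664 TPM, SD, n = 3) and all 3 knockdown libraries were clearly lower (13.1 ± 3.09 TPM, SD, n = 3), with a log2 fold change of −0.98 (standard error 0.20, adjusted p = 0.0721 from limma). With the GC trend removed the adjusted p was 0.0201.

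The tropomyosins, coiled-coil proteins that line the filament and are made from a family of 4 genes, differed among themselves. *TPM1* had 1395.55, 1145.33 and 1087.17 TPM in control and 888.99, 851.89 and 732.96 TPM in knockdown libraries, with no overlap between the groups (1209 ± 164 against 825 ± 81.5 TPM, SD, n = 3). The fold change was −0.55 on the log2 scale (standard error 0.14, limma adjusted p = 0.112), and the adjusted p with the GC trend removed was 0.0430. *TPM3* was also lower in every knockdown library, by less: 658.89, 654.49 and 786.04 TPM against 582.23, 558.74 and 556.17 TPM (log2 fold change −0.30, standard error 0.12, adjusted p = 0.275 from limma). *TPM2* ran from 151.33 to 289.72 TPM in control and from 170.60 to 240.19 TPM in knockdown libraries, and *TPM4* from 196.13 to 251.23 TPM and from 200.80 to 236.48 TPM, so that the groups overlapped in both. A pseudogene of *TPM4*, *TPM4P2*, was listed at 13.5 TPM on average.

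The calponins, which bind filaments and dampen myosin activity, and the transgelins, their small relatives, showed a comparable unevenness. *CNN2*, the calponin of non-muscle cells, had 116.36, 145.55 and 113.58 TPM in control and 77.77, 86.23 and 84.22 TPM in knockdown libraries (log2 fold change −0.58, standard error 0.16, adjusted p = 0.128 from limma). Control libraries were all above knockdown libraries. *CNN3* had 240.89, 183.16 and 135.33 TPM in control and 165.87, 162.19 and 146.76 TPM in knockdown libraries, with the control replicates spread around the knockdown values. *CNN1*, the smooth muscle calponin, was near 0, from 0 to 0.70 TPM in control and from 0 to 0.49 TPM in knockdown libraries, and was not tested. *TAGLN*, a smooth muscle marker also known as SM22, was low, with 1.71, 3.28 and 5.59 TPM in control and 1.29, 1.51 and 0.91 TPM in knockdown libraries (log2 fold change −0.93, standard error 0.36, adjusted p = 0.246 from limma). With pseudocounts of 0.1 and 5 TPM its log2 fold change was −1.31 and −0.43. It overlaps *PCSK7*, expressed at 23.8 TPM from the opposite strand, so its value is uncertain. *TAGLN2*, the transgelin of most other cells, had 494.27, 632.91 and 561.26 TPM in control and 511.62, 565.36 and 555.25 TPM in knockdown libraries, in overlapping ranges.

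All 3 crosslinkers had negative fold changes, against 53.7% of all tested genes, and 2 were below control in every knockdown library, against 13.4% of all tested genes. *FLNA* codes for filamin A, which joins filaments into networks and links them to membrane receptors. It had 547.44, 741.88 and 714.45 TPM in control and 423.45, 528.45 and 490.57 TPM in knockdown libraries (log2 fold change −0.47, standard error 0.16, adjusted p = 0.200 from limma). The groups did not overlap, though the highest knockdown library came close to the lowest control library. *ACTN1* and *ACTN4* code for the non-muscle α-actinins that bundle stress fibers. *ACTN1* had 259.38, 269.70 and 224.63 TPM in control and 176.74, 222.26 and 192.13 TPM in knockdown libraries (log2 fold change −0.35, standard error 0.15, adjusted p = 0.292 from limma). *ACTN4* had 576.85, 683.85 and 524.32 TPM and then 422.26, 537.91 and 520.59 TPM (log2 fold change −0.27, standard error 0.16, adjusted p = 0.426 from limma). Its groups overlapped at knockdown replicate 2 and control replicate 3.

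Among the 7 adhesion genes, *FBLIM1* (migfilin, which links filamin to the integrin activator kindlin) had the lowest fold change of all members. It lies on chromosome 1 from 15756607 to 15786594 and had 9.43, 15.63 and 5.45 TPM in control and 1.61, 2.63 and 3.04 TPM in knockdown libraries. Every knockdown library was lower than all control libraries, but the control libraries lay far apart. The mean was 10.2 ± 5.13 TPM in control and 2.43 ± 0.736 TPM in knockdown cells (SD, n = 3 each), with a log2 fold change of −1.62 (standard error 0.36, adjusted p = 0.0843 from limma). It was −1.94 with a pseudocount of 0.1 TPM and −0.98 with a pseudocount of 5 TPM, ran from −1.97 to −1.28 with single libraries left out and was called without control replicate 3 (adjusted p = 0.0397).

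In *VCL*, *TLN1* and *ZYX*, core genes of the focal adhesion, the groups overlapped. *VCL* (vinculin, which reinforces the link under load) ran from 87.13 to 145.67 TPM in control and from 83.16 to 104.90 TPM in knockdown libraries, and overlaps *AP3M1* on the opposite strand at 50.9 TPM. *TLN1* (talin, which joins integrin tails to actin) ran from 72.36 to 101.70 TPM and from 68.71 to 84.18 TPM. *ZYX* (zyxin, recruited to strained filaments) ran from 62.92 to 100.88 TPM and from 62.47 to 83.45 TPM. Kindlin-2, coded by *FERMT2*, and Hic-5, coded by *TGFB1I1*, also overlapped, at 15.71 to 25.00 TPM and 16.46 to 25.29 TPM in control and 16.02 to 24.37 TPM and 17.96 to 23.75 TPM in knockdown libraries. *TNS1* (tensin) was not tested, at 0.05, 0.10 and 0.20 TPM in control libraries and listed at 0 in all 3 knockdown libraries.

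**Figure D3:**
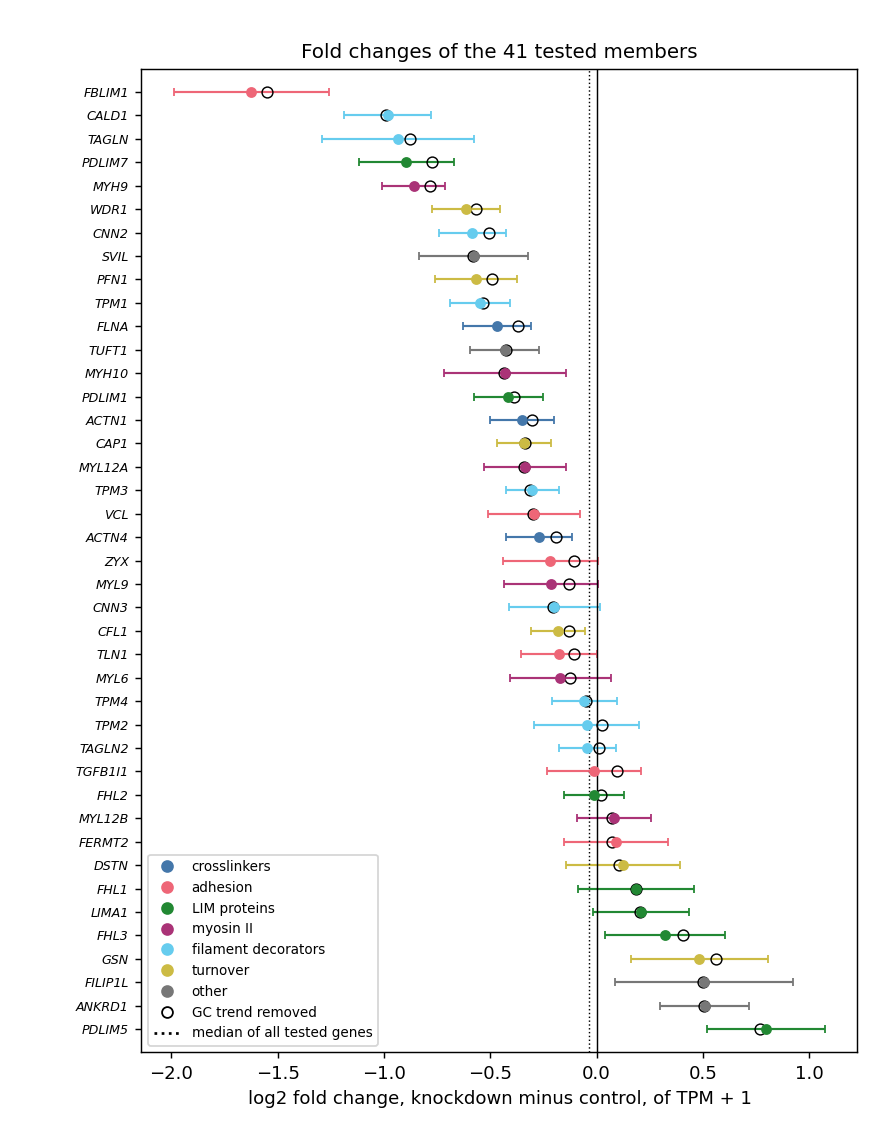
Log2 fold change of the 41 tested members (x axis, knockdown against control) with its standard error as a bar, coloured by role, with open circles for the value with the GC trend removed and a dotted line at the median of all tested genes. Points of the filament decorators and crosslinkers all lie left of 0, the LIM proteins lie on both sides, and *FBLIM1* at −1.62 and *PDLIM5* at 0.80 are the ends of the range.

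The 7 members classed here as LIM proteins, adaptors that dock on actin bundles and adhesions, did not share a direction, with 3 negative and 4 positive fold changes. *FBLIM1*, *ZYX* and *TGFB1I1* also code for LIM domain proteins but are counted with the adhesion genes (log2 fold changes −1.62, −0.22 and −0.01). *PDLIM7* (enigma, which tethers kinases to α-actinin bundles) had 42.17, 65.05 and 60.01 TPM in control and 23.74, 32.23 and 31.95 TPM in knockdown libraries, without overlap (log2 fold change −0.89, standard error 0.22, adjusted p = 0.104 from limma). *PDLIM1* was also below control in every knockdown library, at 75.84, 87.09 and 66.74 TPM against 57.95, 58.14 and 54.42 TPM (log2 fold change −0.42, standard error 0.16, adjusted p = 0.252 from limma). *PDLIM5* (ENH, a related scaffold) stood the other way, at 28.36, 19.08 and 14.76 TPM against 43.65, 37.88 and 27.01 TPM (log2 fold change 0.80, standard error 0.28, adjusted p = 0.207 from limma). Only knockdown replicate 3, which was below control replicate 1, kept its groups from being apart. *PDLIM7* and *PDLIM5* were both called with the GC trend removed, with adjusted p of 0.0113 and 0.0201 and fold changes of opposite sign.

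The 4 remaining genes of this class overlapped between groups. *FHL2*, an adhesion protein that also shuttles to the nucleus, had almost equal group means, at 116.91, 108.83 and 124.07 TPM in control and 111.85, 119.73 and 115.06 TPM in knockdown libraries. *FHL1* ran from 36.79 to 73.01 TPM and from 52.15 to 74.58 TPM, and *FHL3* from 4.81 to 8.84 TPM and from 7.12 to 11.91 TPM. *LIMA1* (EPLIN, which stabilizes filaments at junctions) ran from 62.63 to 108.03 TPM and from 80.85 to 107.06 TPM.

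Within families, ratios of paralogs leave out what both genes of a pair share. Of 17 pairs compared by the difference in log2(TPM + 1), 5 had no overlap between the groups, and each of these had an exact permutation p of 0.1 (two-sided), which is the smallest that 3 libraries against 3 allow, or 0.34 after adjustment over the 17 pairs. The *PDLIM5* to *PDLIM7* ratio of TPM was 0.6725, 0.2933 and 0.246 in control and 1.839, 1.175 and 0.8454 in knockdown replicates (log2 difference 1.69, standard error 0.53). *PDLIM7* was thus the higher of the pair in all 3 control libraries and *PDLIM5* in 2 of 3 knockdown libraries. *PDLIM5* has the lowest and *PDLIM7* the highest GC content of the tested members (40.1% and 64.5%), so the libraries' trend with GC content does not drop out of this ratio. The ratio fell from replicate 1 to replicate 3 in both groups. With that trend removed, the log2 fold changes of *PDLIM5* and *PDLIM7* were 0.77 and −0.78. The *TPM1* to *TPM4* ratio was 5.555, 4.877 and 5.543 in control and 3.759, 3.936 and 3.65 in knockdown replicates (log2 difference −0.49, standard error 0.07), with little spread inside each group. The *MYL12A* to *MYL12B* ratio was 0.9753, 1.24 and 0.9346 and then 0.7277, 0.762 and 0.8521 (log2 difference −0.42, standard error 0.14). The other 2 pairs were *PDLIM1* with *PDLIM5* (log2 difference −1.21, standard error 0.30) and *TAGLN* with *TAGLN2* (log2 difference −0.89, standard error 0.35). With so few libraries none of the 17 pairs could pass an adjusted threshold of 0.05.

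**Figure D4:**
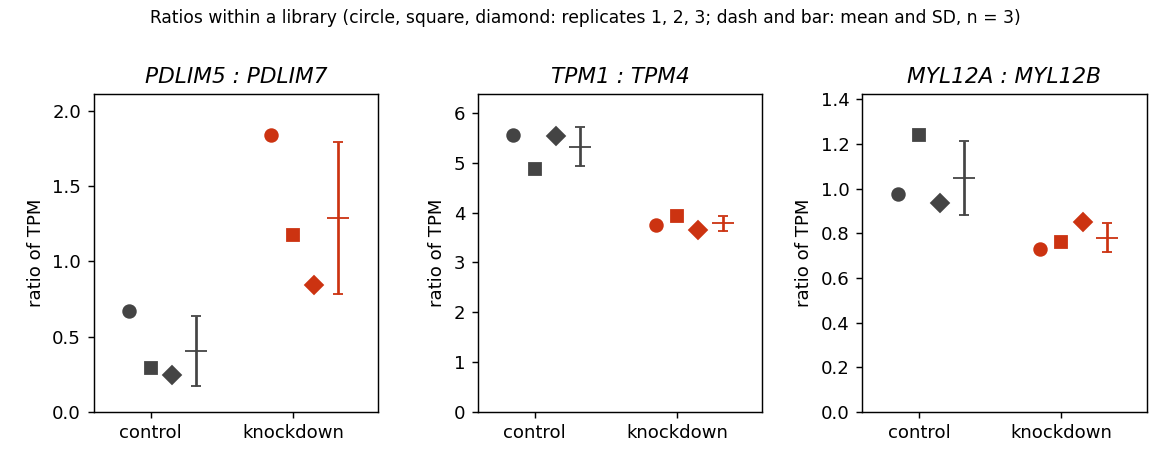
Ratio of TPM within 3 paralog pairs (y axis) in each control and knockdown library, with 1 point per library. The *PDLIM5* to *PDLIM7* ratio lies higher and the *TPM1* to *TPM4* and *MYL12A* to *MYL12B* ratios lie lower in all 3 knockdown libraries than in any control library.

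Among the 6 genes of filament turnover, *WDR1* (which works with cofilin to take filaments apart) had 168.89, 196.99 and 217.61 TPM in control and 114.97, 140.52 and 124.13 TPM in knockdown libraries, without overlap (log2 fold change −0.61, standard error 0.16, adjusted p = 0.117 from limma). *CAP1*, which recycles monomers from cofilin and is named after its values were seen, was also below control in every knockdown library, at 387.66, 327.53 and 369.33 TPM against 283.18, 291.51 and 278.83 TPM (log2 fold change −0.34, standard error 0.13, adjusted p = 0.235 from limma). *PFN1* (profilin, which feeds monomers to growing ends) was the member with the highest mean, at 1630.00, 2427.60 and 2361.98 TPM in control and 1172.37, 1470.64 and 1668.37 TPM in knockdown libraries. Knockdown replicate 3 just exceeded control replicate 1 (log2 fold change −0.57, standard error 0.19, adjusted p = 0.195 from limma). *CFL1* (cofilin, the severing factor) ran from 1194.91 to 1385.20 TPM in control and from 994.35 to 1236.24 TPM in knockdown libraries (log2 fold change −0.18, standard error 0.13, adjusted p = 0.518 from limma).

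*DSTN* (destrin, a relative of cofilin) and *GSN* (gelsolin, which severs and caps filaments) had fold changes above 0, with wide control values, and the sign of *DSTN* turned with single libraries left out. *DSTN* ran from 184.12 to 391.65 TPM in control and from 267.28 to 359.63 TPM in knockdown libraries. *GSN* had 19.57, 19.95 and 8.10 TPM in control and 19.70, 21.53 and 21.99 TPM in knockdown libraries, with control replicate 3 apart from the other 5 libraries.

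Of the 4 members outside these classes, *ANKRD1* was the only member above control in every knockdown library. It codes for a mechanosensitive ankyrin repeat protein that is widely used as a readout of YAP and TEAD, and carries the TEAD motif at both positions printed above. It had 23.27, 19.02 and 29.79 TPM in control and 38.58, 33.08 and 30.97 TPM in knockdown libraries, close together at control replicate 3 and knockdown replicate 3 (log2 fold change 0.51, standard error 0.21, adjusted p = 0.273 from limma). *TUFT1* (tuftelin) had 25.51, 28.66 and 28.05 TPM in control and 19.96, 20.67 and 19.47 TPM in knockdown libraries, tight in both groups (log2 fold change −0.43, standard error 0.16, adjusted p = 0.233 from limma). *SVIL* (supervillin, which ties myosin II to membranes) ran from 11.94 to 21.71 TPM in control and from 8.50 to 12.43 TPM in knockdown libraries, and overlaps *SVIL-AS1* on the opposite strand at 16.6 TPM. *FILIP1L* ran from 2.99 to 11.70 TPM and from 7.31 to 12.83 TPM.

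Fold changes of members with and without these motifs covered overlapping ranges. The 10 tested members with a CArG box had a median log2 fold change of −0.20, 8 were negative, and 4 were below control in every knockdown library. The 29 without it had a median of −0.22, 21 were negative, and 9 were below control in every knockdown library. Over all tested genes, 53.7% were negative and 13.4% were below control in every knockdown library. With the TEAD motif the median was −0.29 in 13 members, and without it −0.20 in 26. These are descriptions with no test.

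The actin genes and SRF were read beside the members. *ACTB*, cytoplasmic β-actin, fell from 3069 ± 173 TPM to 1487 ± 98.1 TPM (SD, n = 3; log2 fold change −1.05, adjusted p = 0.00838 from limma). *ACTG1*, cytoplasmic γ-actin, was 3496 and 3391 TPM on average (log2 fold change −0.04, adjusted p = 0.853 from limma). *ACTA2*, smooth muscle α-actin, rose from 9.18, 10.05 and 8.07 TPM to 39.19, 39.21 and 43.14 TPM (log2 fold change 2.04, adjusted p = 0.00444 from limma), against the direction of *TAGLN* and *CALD1*, which are often expressed with it. *SRF* itself had 15.55, 25.75 and 31.64 TPM in control and 4.55, 5.78 and 6.70 TPM in knockdown libraries and fell (log2 fold change −1.88, standard error 0.28, adjusted p = 0.0292 from limma). Its coactivator genes *MRTFA* and *MRTFB* had log2 fold changes of −0.11 and −0.33 (adjusted p = 0.804 and 0.546 from limma). Of the 10 genes of this list, 6 were tested, and 3 were called, against 1.04% of all tested genes. Without control replicate 2, *SRF* and *ACTB* were not called (adjusted p = 0.148 and 0.0647 from limma), nor were they without knockdown replicate 2 (adjusted p = 0.153 and 0.0647), and *SRF* was also not called without knockdown replicate 1 or 3 (adjusted p = 0.121 and 0.129).

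In 3 neighbouring lists few genes passed the test, which called 1.04% of all tested genes. At an unadjusted p under 0.05 from limma, 9.7% of all tested genes were lower and 7.06% higher. Of all tested genes, 13.4% were below and 9.89% above control in every knockdown library. Of 39 tested integrins and adhesion adaptors limma called 0, 7 were lower and 1 higher at an unadjusted p under 0.05, and 8 were below and 2 above control in every knockdown library. *LIMD1*, a LIM adaptor, was 26.2 TPM in control and 14.3 TPM in knockdown cells on average (log2 fold change −0.91, adjusted p = 0.194 from limma). *TNS2* stood the other way, at 3.85, 4.14 and 2.88 TPM in control and 12.05, 4.74 and 5.27 TPM in knockdown libraries (log2 fold change 0.76, adjusted p = 0.310 from limma). *ITGA4*, an integrin of leukocytes and mesenchymal cells, was 33.8 and 22.5 TPM on average (log2 fold change −0.57, adjusted p = 0.151 from limma). Of 49 genes of actin nucleation, branching and capping limma called 0, 8 were lower and 0 higher at an unadjusted p under 0.05, and 13 were below and 1 above control in every knockdown library. *CORO1A* was low, at 1.85 TPM in control and 0.797 TPM in knockdown cells on average (log2 fold change −0.67, adjusted p = 0.275 from limma). *DIAPH1*, a formin that nucleates filaments, was 88.3 and 56.5 TPM (log2 fold change −0.63, adjusted p = 0.149 from limma), and *FLNC*, a relative of *FLNA*, was 127 and 82.2 TPM (log2 fold change −0.60, adjusted p = 0.229 from limma).

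Of 20 YAP and TEAD response genes 1 was called, against 1.04% of all tested genes. This gene, *THBS1*, a secreted matrix glycoprotein, fell from 170 ± 13.6 TPM to 71.8 ± 10.8 TPM (SD, n = 3, log2 fold change −1.24, adjusted p = 0.0252 from limma). It was not called without control replicate 2 (adjusted p = 0.130 from limma) or without a knockdown library (adjusted p from 0.0865 to 0.138). *F3* went against *THBS1* and lay above control in every knockdown library, though it was not called. Control libraries held 61.44, 41.26 and 55.11 TPM of *F3*, and knockdown libraries 109.69, 105.65 and 86.89 TPM (log2 fold change 0.94, limma adjusted p = 0.0726). Removing the GC trend brought *F3* to an adjusted p of 0.0220. *CCN1* and *CCN2*, the classic readouts of the pathway, had log2 fold changes of −0.16 and 0.34 (adjusted p = 0.565 and 0.430 from limma). With the GC trend removed, the calls in these 3 lists were 2 lower and 1 higher, 4 lower and 0 higher, and 1 lower and 1 higher, in the order given, against 8.86% of all tested genes in either direction.

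Defining endothelial markers were near 0, with 0 of 9 reaching a mean of 1 TPM and a summed level of 0.40 to 3.21 TPM in control and 0.59 to 1.46 TPM in knockdown libraries. Of 10 hepatocyte markers only *SERPINA1* was tested, at 22.0 TPM in control and 33.5 TPM in knockdown cells on average and higher in every knockdown library (log2 fold change 0.59, adjusted p = 0.192 from limma), and *ALB* was at 0 in every library. Of 6 smooth muscle markers only *SMTN* was tested, with sums of 93.7 to 170.8 TPM in control and 107.4 to 122.2 TPM in knockdown libraries, and *ACTG2* was at 0. Of 6 mesenchymal markers 5 were tested, with sums of 3900 to 4152 TPM in control and 4440 to 4881 TPM in knockdown libraries. The sum is nearly all *VIM* (3883 and 4615 TPM, log2 fold change 0.25, adjusted p = 0.225 from limma), whereas *PDGFRB* (4.18 and 1.13 TPM, log2 fold change −1.22, adjusted p = 0.12 from limma) and *THY1* (130.7 and 89.2 TPM, log2 fold change −0.54, adjusted p = 0.226 from limma) were lower in every knockdown library. Of 5 epithelial markers, *KRT8* and *KRT18* fell (log2 fold changes −1.18 and −1.03, adjusted p = 0.0354 and 0.0292 from limma), with sums of 2615 to 3926 TPM in control and 1919 to 2267 TPM in knockdown libraries, and *CDH1* was at 0. *KRT19* stood the other way, at 390.31, 611.95 and 443.03 TPM against 725.24, 923.15 and 914.01 TPM (log2 fold change 0.84, adjusted p = 0.0868 from limma, and 0.0151 with the GC trend removed). *KRT8* and *KRT18* were not called without control replicate 2 or without any knockdown library, nor with median-of-ratios scaling (adjusted p from 0.0698 to 0.153 over these settings). Of 4 blood cell markers only *CD68*, a lysosomal protein, was tested (49.6 and 121 TPM, log2 fold change 1.34, adjusted p = 0.0816 from limma), with *PTPRC* and *CD3E* at 0. These marker levels, of which *KRT8*, *KRT18*, *PDGFRB* and *THY1* were lower and *KRT19*, *VIM*, *SERPINA1* and *CD68* higher in every knockdown library, differed with the groups, and their part in the values of the members was not tested.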

How the data were processed

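RNA-Seq data of 6 SK-Hep1 libraries (3 control and 3 *RAB30-DT* knockdown) were used as deposited. The authors trimmed reads with fastp and, by their methods, aligned them with STAR and quantified genes with RSEM, whereas the submitters' processing notes name HISAT2 2.0.5. The deposited unit is TPM per gene. TPM keep no read number, so the depth is unknown, and the number of libraries limits the precision. The methods name a later GENCODE release, but all 62700 gene identifiers matched Release 44, used here for names, hg38 positions and GC content. Whether counting used strand is not given in the sources used here.

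Values were analysed as log2(TPM + 1) with limma 3.58.1 in R 4.3.3 (eBayes with trend, two-sided, no block). The 14020 genes averaging 1 TPM or more entered the fit, and a call needed a Benjamini–Hochberg adjusted p under 0.05 over all of them. Everything else was computed in Python 3.11.15 with numpy 2.4.6 and pandas 2.3.3. GC trends were removed by loess (span 0.3). The members and lists were chosen with earlier results of these data known. Statistics are given for members called, and for up to 12 further members with the largest fold change among those without overlap of the groups. They are also given for the 3 members with the highest mean, and for at most 4 genes of each other list by the same order. In the paralog families some genes have statistics and the others are given by level. *ACTG1*, *MRTFA*, *MRTFB*, *CCN1*, *CCN2*, *CAP1* and the statistics of marker genes are given outside this rule, after their values were seen. Protein sequences were not used here, and 1 gene list and 1 sequence feature of the plan are not reported here.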

Additional observations from a re-analysis of the deposited data

How the results depend on the processing

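The GC trend removal was planned with earlier results of these data known. Its repeats with single libraries left out and the counts of members without overlap under other scalings were chosen after seeing the data. Against 146 genes and 1 member called (1 lower, 0 higher), 13 and 0 were called without a filter on low values, 16 and 0 at an adjusted p under 0.01, and 455 and 3 (3 lower) at an adjusted p under 0.1. The members called were 0 with median-of-ratios scaling, quantile normalization or eBayes without trend. With arrayWeights 3218 genes and 16 members (14 lower, 2 higher) were called, and with the GC trend removed 1242 and 8 (7 lower, 1 higher). Leaving out 1 library gave 12 to 489 genes and 0 to 4 members (0 to 4 lower), and 0 to 16 members with the GC trend removed.

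A replicate block gave 861 genes and 10 members (9 lower, 1 higher), and with the GC trend removed 1074 genes and 7 members (6 lower, 1 higher). Deviations in libraries with the same number correlated at 0.410, 0.0359 and 0.279, and those with unlike numbers at −0.3555 to 0.1108. The correlation with GC content also rose from replicate 1 to replicate 3 in both groups. The main fit used no block, and whether equal numbers mark a shared batch was not tested. Control replicate 2 correlated best with knockdown replicate 3 (0.1108).

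The members' median fold change was −0.10 with quantile normalization. Members above control in every knockdown library were 3 with median-of-ratios scaling or the GC trend removed and 4 with quantile normalization, against 1. All members with a fold change and test given kept their direction under all alternatives. *CNN3*, given by level, ran from −0.41 to 0.005 with single libraries left out, positive without control replicate 1. Among all 41 tested members 11 turned: *CNN3*, *DSTN*, *FERMT2*, *FHL1*, *FHL2*, *MYL12B*, *MYL6*, *TAGLN2*, *TGFB1I1*, *TPM2* and *TPM4*. Causes were not tested. Without a read number, what depth limits is unknown.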
